A study of Mus musculus with 8 samples.

Results

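The regions described here were 525 loci of the mouse genome listed as long intergenic noncoding RNA (lincRNA) genes, for which the array carried probes against both DNA strands. The array named 3540 lincRNA loci in all. Of these, 1067 had probes for the forward (F) and the reverse (R) strand of the same interval, and 542 of the 1067 were left out because a probe for a protein-coding (NM_) transcript lay within 20 kb on either strand. The remaining 525 were chosen from probe names and positions, and no measured level entered the choice. They held 4544 probes of 60 bases, from 1 to 10 on a strand with a median of 5. The loci spanned 5051 to 508115 bases with a median of 20726, in coordinates of genome build mm9. The nearest positioned NM_ probe lay 20127 bases away at the least and a median of 60460 bases away. A position was given for 25519 of the 26732 NM_ probes, so a coding gene without one could lie closer. In 4 cases a locus overlapped another locus of the set, and these share sequence.

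NIH3T3 is an immortalised line of mouse fibroblasts. All cells were kept for 24 h in low newborn bovine serum before treatment. The cordycepin plus serum group (3 arrays) had 20 µM cordycepin in DMSO for 90 min and serum for 30 min, and the serum group (3 arrays) had DMSO for 90 min and serum for 30 min. By the deposited treatment protocol the serum fell within the drug period, whereas the study's text places it after. The no serum group (2 arrays) had no serum added. The protocol gives DMSO as the control treatment, but the labels of the no serum samples name only starvation and no time. There was no group with cordycepin and no serum, so every effect of the drug was measured in serum-stimulated cells. The labels give separate samples but do not say whether they were separate cultures, so the tests measure the spread between these samples, which may be technical.

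Long noncoding RNAs are transcripts that lack a long open reading frame, and many are capped, spliced and polyadenylated like mRNAs. A locus can be transcribed on its sense strand, on the antisense strand or on both, because promoters often fire in both directions and because RNA polymerase can run past the end of a gene. Antisense transcripts can act on their partner or be by-products of its transcription. Cordycepin is an adenosine analogue without the 3′ hydroxyl group. It is known as an inhibitor of polyadenylation. Serum stimulation of starved fibroblasts switches on the immediate early genes within minutes. The comparisons below ask whether the strands of a lincRNA locus changed together or separately when serum and cordycepin were applied.

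Each strand was read through its brightest probe, the one with the highest mean over the 8 arrays. The probe pairs that carry the main strand comparisons are shown here as deposited, 5′ to 3′, each with the strand that it reads. At the chromosome 13 locus the F probe (chr13:94067717-94067776) and the R probe (chr13:94067707-94067766) shared 50 bases on opposite strands, which are in capitals, and only the R probe rose with cordycepin.
chr13 F: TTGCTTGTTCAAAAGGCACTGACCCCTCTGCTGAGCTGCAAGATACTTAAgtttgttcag
chr13 R: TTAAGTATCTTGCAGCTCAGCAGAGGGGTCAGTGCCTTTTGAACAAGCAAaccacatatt
At the chromosome 5 locus of 6748 bases an F probe (chr5:75395871-75395930) and the brightest R probe (chr5:75395856-75395915) shared 45 bases, in capitals, and both rose with cordycepin.
chr5 F: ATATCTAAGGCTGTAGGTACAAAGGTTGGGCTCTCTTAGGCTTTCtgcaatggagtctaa
chr5 R: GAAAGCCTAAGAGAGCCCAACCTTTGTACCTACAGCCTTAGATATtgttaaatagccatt
At the chromosome 1 locus and at the Tug1 locus the brightest probes of the strands lay apart and shared no bases, and only the R probe changed. They read chr1:107886659-107886718 and chr1:107870186-107870245, and chr11:3547405-3547464 and chr11:3538927-3538986.
chr1 F: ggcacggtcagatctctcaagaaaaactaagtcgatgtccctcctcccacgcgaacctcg
chr1 R: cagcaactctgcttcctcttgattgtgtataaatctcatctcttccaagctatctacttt
Tug1 F: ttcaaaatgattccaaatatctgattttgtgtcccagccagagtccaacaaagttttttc
Tug1 R: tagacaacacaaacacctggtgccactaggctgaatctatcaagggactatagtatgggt

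Between 51.9% and 57.7% of the spots of an array were well above background, and no spot was saturated. Arrays of a group correlated at 0.988 to 0.992 and cordycepin arrays correlated with the others at 0.978 to 0.985. All 10 fibroblast markers, among them Col1a1, Fn1 and Vim, were well above background on all 8 arrays. Of 11 markers of leukocytes, epithelium, endothelium, muscle and fat, 3 were well above background on all arrays (Cd68, Krt14 and Pecam1) and 3 on no array (Cdh1, Cdh5 and Myog). The median log2 level of the 11 was -6.43 in the serum group and -5.52 in the cordycepin plus serum group, and 2 of the 11, Cd68 and Adipoq, were called higher with cordycepin. Ptprc, the pan-leukocyte marker, was at -5.37 and -5.49. The part of these markers in the lincRNA results was not tested. The serum response genes Fos, Fosb, Egr1 and Junb were all called higher with serum and lower with cordycepin. The number of arrays limits the precision of every value below, and in bulk RNA fewer cells of a type and less RNA per cell cannot be told apart.

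**Figure D1:**
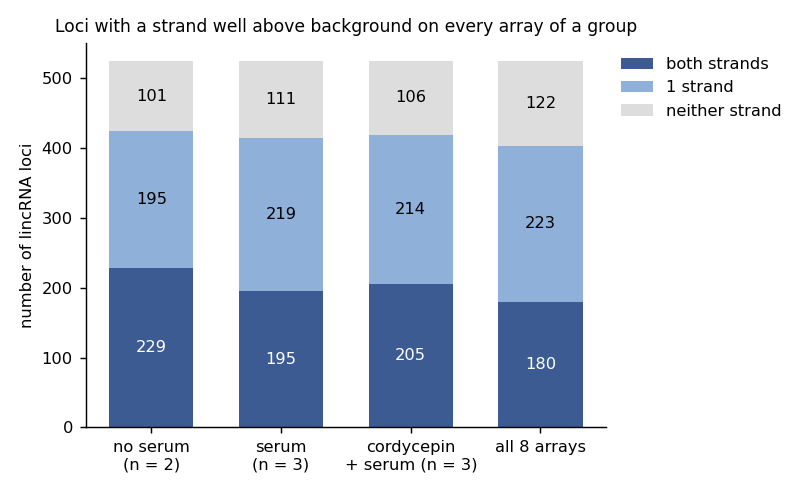
Number of the 525 loci (vertical axis) with both strands, 1 strand or neither strand detected on all arrays of a group by the brightest probe. Both strands were detected at 195 to 229 loci in the 3 groups, and at 180 loci on all 8 arrays.

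Many of these loci gave signal from both strands. A strand counted as detected in a group when its brightest probe passed the scanner software's background test on all arrays of that group. Both strands were detected at 229 loci in the no serum group, at 195 in the serum group and at 205 in the cordycepin plus serum group, and on all 8 arrays at 180 loci (34.3%). A single strand was detected at 195, 219 and 214 loci in the same order. Neither strand was detected at 101, 111 and 106 loci. The no serum group has fewer arrays to pass than the others, so its higher count is not a comparison of groups. Per array, 635 to 731 of the 1050 strands were well above background. The 36 loci with neither strand above background on any array are not described further.

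At the 195 loci where only 1 strand was detected without serum, the detected strand was called higher with cordycepin in 13 cases (6.67%) and lower in 4 (2.05%), near the 7.56% and 2.99% of all tested probes. The other strand was well above background on neither no serum array at 134 of these loci. None of the 134 was detected on all serum arrays, and 3 were detected on all cordycepin plus serum arrays. Over the whole set, 7 strands were well above background on no array without cordycepin and on all 3 arrays with it. The largest was the R strand of chr14:65785477-65815777, at least 5.19-fold higher than in the serum group, as a bound from the dimmest detectable signal. The F strand of chr6:100162756-100178531 was at least 3.58-fold higher. The other 5 had bounds of 1.63-fold to 2.24-fold. These bounds set the mean of the cordycepin arrays against, for each serum array, the higher of the probe's own signal and the lowest signal well above background.

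Of the 1050 strands, 684 were tested, meaning that the brightest probe was detected in this way in 1 group or more. Both strands were tested at 246 loci, 1 strand at 192 and neither at 87. All levels are log2 values relative to the 75th percentile of the array, and a change was called when limma's adjusted p, over all 30852 tested probes of the array, was below 0.05 and the log2 change was at least 1 in size. Levels of different probes are not set against each other, only their changes.

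With cordycepin plus serum against serum, 51 of the 684 strands were called higher and 17 lower. This was 7.46% and 2.49%, beside 7.56% and 2.99% of all tested probes, shares near the background that are not a result about these loci. The median log2 change of the 684 strands was 0.11 and that of all tested probes 0.09. The fitted log2 changes of the called strands ran from 1.01 to 3.03 upward and from 1.04 to 2.27 downward. The arrays of the groups did not overlap at any of the 51 or the 17. The size and adjusted p needed for a call favour this, and the share over all called probes was not counted. It also fixes their direction within each slide row, so that direction is no further support. In size, 47 and 17 changed by at least 1 within the first slide row, and 42 and 12 within the second. Among the 51, 34 were well above background on every array of both groups, and among the 17 there were 12. With a normexp correction 17 strands were called higher and 3 lower, and with centring on the spike-in probes 26 and 3.

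Most of these strands were dim. Only 181 of the 684 were brighter than the median tested probe, and 9 of those were called higher (4.97%) and 2 lower (1.10%), beside 1.13% and 2.44% of all brighter probes. Of the 503 dimmer strands 42 were called higher (8.35%) and 15 lower (2.98%), beside 14.0% and 3.53% of all dimmer probes. Among the other 984 tested probes of the loci, 162 (16.5%) were called higher and 58 (5.89%) lower, beside 7.56% and 2.99% of all tested probes. These probes are dimmer than the brightest of their strand by definition, and the dimmer probes of the array gave 14.0% and 3.53%. The same kind of probe gave 23.1% and 3.05% at loci with both strands probed near a coding gene. At loci probed on 1 strand it gave 22.6% and 5.89%. The share is thus not a result about these loci. Any probe called higher was found on 96 strands and any probe called lower on 41. Of the 51 strands called higher by their brightest probe, 34 had a further tested probe, and 29 of the 34 had a further probe called higher. Of the 17 called lower, 14 had a further tested probe and 8 of them a further probe called lower. In all, 85 of 118 further probes on the strands called higher were themselves called higher, and 18 of 30 on the strands called lower were called lower.

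**Figure D2:**
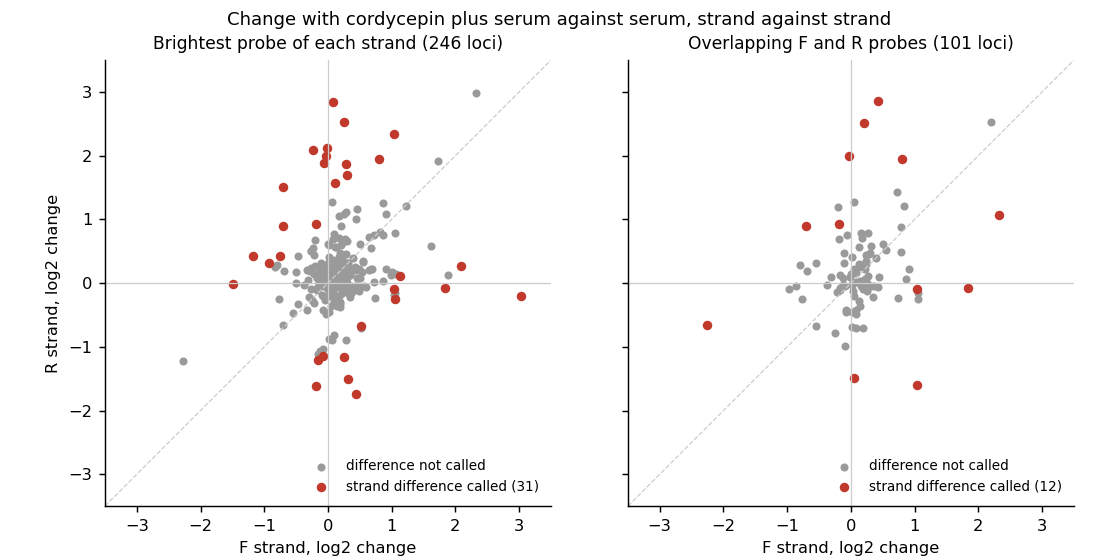
Log2 change with cordycepin plus serum against serum of the F strand (horizontal axis) and the R strand (vertical axis), 1 point per locus. The left panel uses the brightest probe of each strand at 246 loci and the right panel an F and an R probe that overlap at 101 loci. Red points are loci called for a difference between strands, 31 on the left and 12 on the right, and at 26 of the 31 the strand that changed less lies within 0.5 of zero.

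Of the 246 loci with both strands tested, 41 had exactly 1 strand called, 3 had both strands called higher and 202 had neither strand called. F was called higher at 16 of the 246 and lower at 3, and R higher at 19 and lower at 9. With so few calls, most loci with a call have 1 called strand even if the strands change independently. The 41 is therefore not a result about the strands, and its share over all two-strand loci of the array was not counted. By these brightest probes no locus had both strands called lower, and no locus had strands called in opposite directions. Both strands were called higher at 1.42% of the 563 loci of the array with both strands tested, those near coding genes included. Across the 246 loci the changes of F and R correlated at 0.21 (Pearson) and 0.14 (Spearman), as a description over loci that share arrays. The difference between the changes of the strands was fitted per locus, over the same 563 loci, and was called at 31 of the 246 (12.6%), beside 17.1% of the 563. At 18 of the 31 the strand with the larger change was called higher and at 8 it was called lower. At 5 neither direction was called for it. The other strand was within 0.5 of no change at 26 of the 31, with a median log2 change of 0.08. The R strand was the higher at 18 loci and the F strand at 13. With the normexp correction 10 loci were called for a difference.

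The probes of the strands did not always lie in the same place. The brightest F and R probes overlapped at 43 of the loci with both strands tested, and 6 of these were called for a difference. They lay over 1000 bases apart at 119 loci, of which 18 were called. All 3 loci with both strands called higher had their brightest probes between 60 and 1000 bases apart. A second comparison, chosen after seeing the data, took an F and an R probe that overlapped, which was possible at 101 loci. There 12 loci (11.9%) were called for a difference, beside 16.7% of the 239 such loci on the array. At 10 loci 1 of the overlapping probes was called higher and its partner was not called, at 2 loci 1 was called lower and its partner was not, and at 2 loci both were called higher. Of the 31 loci called with the brightest probes 13 had an overlapping pair, and 7 of the 12 loci called with overlapping probes were among them.

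Over nearly the same bases, the strands differed at chr13:94065827-94071377, a locus of 5551 bases. Its F probe read -3.30, -3.06 and -2.61 in the cordycepin plus serum arrays, -3.15, -2.66 and -3.06 in the serum arrays and -3.05 and -3.09 in the no serum arrays, so the groups overlapped. The R probe, which shared 50 of its 60 bases, read -4.00, -5.18 and -3.89 with cordycepin plus serum, -6.96, -6.13 and -5.94 with serum and -6.65 and -6.77 without serum. All 3 cordycepin arrays were above all others, and no array without cordycepin was well above background. The R strand was at least 1.79-fold higher than with serum and was called higher, and the difference between strands was called. The R probe passed the filter only through the cordycepin plus serum arrays, where it was high, so these calls are not independent support. The size of the difference is not given because R was at the background with serum. With the normexp correction the log2 change of the R strand was 0.52 with an adjusted p of 0.10, and the call was lost. Over overlapping probes the R strand was also the one called higher at chr2:31001736-31006911 (2.86 against 0.42 on F, log2 changes) and at chr15:86035939-86042539, where R was well above background on none of the serum arrays and F changed by 0.21. At chr2:31001736-31006911 that R probe was well above background on only 1 serum array, so the 2.86 rests on values near the background. The brightest R probe of the locus, well above background on all 8 arrays, rose by 1.70. The F strand was the one called higher at chr2:167404245-167414345 (1.84 against -0.07 on R), where F was well above background on only 1 serum array. That F probe and the R probe at chr15:86035939-86042539 passed the filter only through the cordycepin plus serum arrays, where they were high. Their calls are therefore not independent support either.

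**Figure D3:**
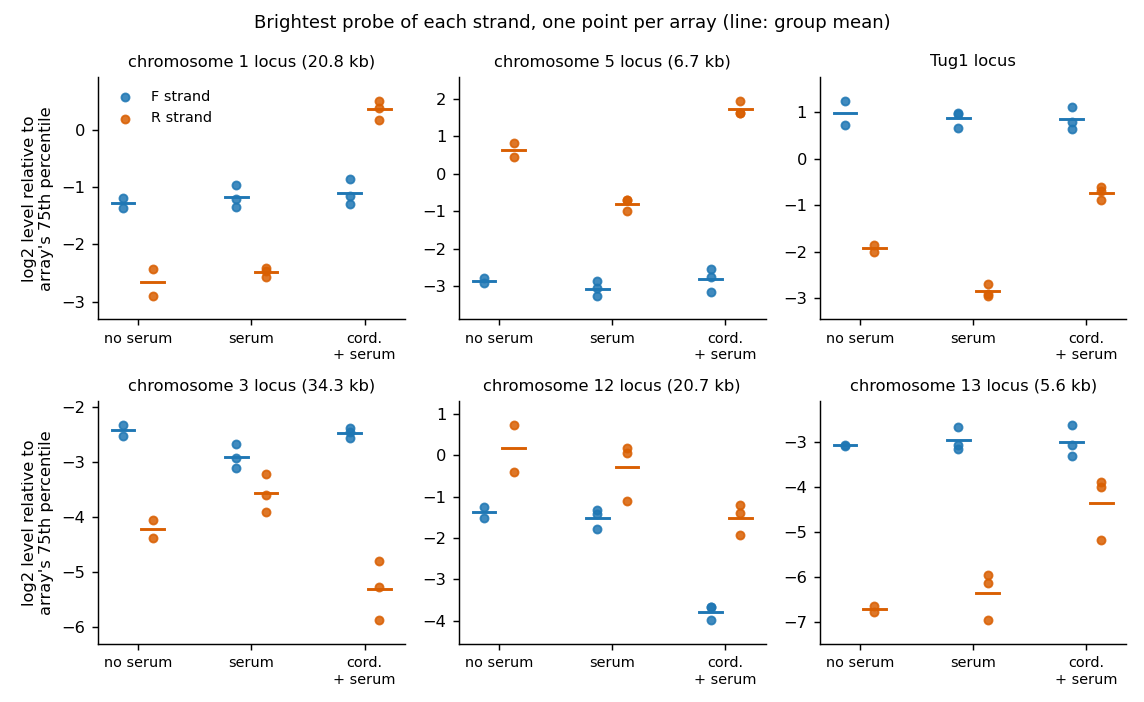
Log2 level relative to the array's 75th percentile (vertical axis) of the brightest F and R probe at 6 loci, with 1 point per array and a line at each group mean, for the no serum, serum and cordycepin plus serum groups. Heights of F and R are levels of different probes and are not comparable. Of these brightest probes, only R moved up with cordycepin at the chromosome 1, 5, 11 (Tug1) and 13 loci. Only R moved down at the chromosome 3 locus, and F moved down at the chromosome 12 locus, where R varied between arrays. Other probes of a strand can differ. At chr5:75389503-75396250, 3 of the 4 tested F probes were called higher with cordycepin.

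The largest strand difference with both strands well above background in both groups was at chr1:107866276-107887102. The R probe read 0.51, 0.38 and 0.18 with cordycepin plus serum, -2.57, -2.40 and -2.46 with serum and -2.43 and -2.90 without serum. The cordycepin arrays stood far above both other groups, which overlapped each other. The log2 change was 2.84 ± 0.15 (SE, adjusted p = 1.7e-05), while the F probe changed by 0.08 ± 0.15. The difference between strands was -2.76 ± 0.20 (adjusted p = 3.7e-05). All 6 tested R probes of the locus were called higher, by 2.26 to 3.13. The F strand had a single tested probe, which lay more than 10 kb to the right of the R probes. Another R probe inside the locus, for the predicted gene Gm7160, changed by 0.22.

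At chr5:75389503-75396250 the R probe read 1.95, 1.61 and 1.61 with cordycepin plus serum, -0.70, -1.01 and -0.69 with serum and 0.82 and 0.44 without serum. The 3 groups were separate, with serum lowest and cordycepin plus serum highest. The R strand fell by 1.43 with serum and rose by 2.52 with cordycepin (adjusted p = 0.0071 and 3.4e-05), comparisons that share the serum arrays. All 5 tested R probes were called in both comparisons. The brightest F probe changed by 0.25 with cordycepin, and the difference between strands was called (-2.28 ± 0.25). However, 3 of the 4 tested F probes of this locus were called higher. Of these, 2 rose by 2.20 and 2.38, and the last was well above background on none of the serum arrays, and the F strand passed when its probes were averaged (2.05). The strand difference here thus belonged to 1 F probe.

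Tug1 is a widely expressed lincRNA first described in the developing retina, and its transcript runs on the R strand of chr11:3538125-3554450. The R probe of the locus read -0.69, -0.88 and -0.62 with cordycepin plus serum, -2.91, -2.68 and -2.95 with serum and -2.00 and -1.85 without serum, again 3 separate groups. It rose by 2.12 ± 0.13 with cordycepin (adjusted p = 2.3e-05), and its log2 change with serum was -0.92, under the size needed for a call. The strand difference was -2.13 ± 0.29 (adjusted p = 0.00086). All 8 tested R probes of the locus lay between positions 3538865 and 3539681, to the left of the probes named Tug1, which for a transcript of the R strand is downstream. Of these, 5 were called higher, and 1 of the 5 was well above background on none of the serum arrays. The other 7 changed by 0.76 to 2.12. None of the 18 other R probes in the locus, which include those named Tug1, was called (-0.83 to 0.29). None of the 9 F probes, at positions 3547179 to 3548924, was called either (-0.30 to 0.25).

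At chr5:149751979-149808240 the R probes that rose also lay at the left end of the locus. The strand carries the uncharacterised transcript 5930430L01Rik and the opposite strand carries 8430423G03Rik. The brightest R probe read 0.03, -0.24 and -0.39 with cordycepin plus serum, -2.19, -2.83 and -1.83 with serum and -0.99 and -1.26 without serum. It rose by 2.08 ± 0.25 with cordycepin (adjusted p = 0.0006), and the log2 change with serum was -1.16 with an adjusted p of 0.092. The 5 R probes called higher all lay at positions 149755110 to 149755430, at the left end, and the other 3 tested R probes of the locus changed by -0.10 to 0.29. Of 11 other R probes inside the locus 1 was called lower, and it was well above background on none of the cordycepin plus serum arrays. No F probe was called. The strand difference was -2.32 ± 0.24 (adjusted p = 0.00027).

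**Figure D4:**
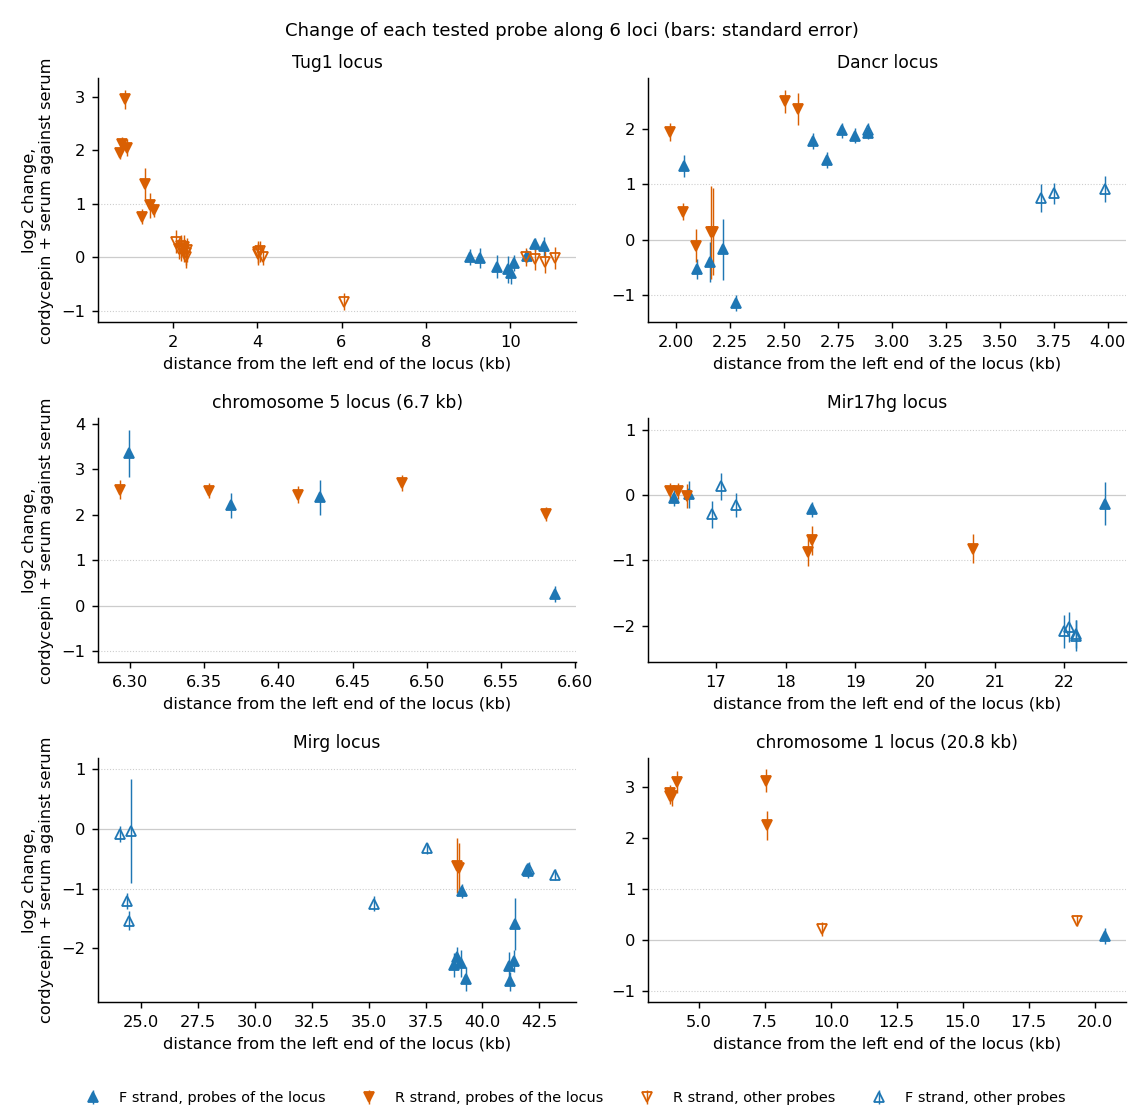
Log2 change with cordycepin plus serum against serum (vertical axis) of each tested probe, with its standard error, by distance from the left end of the locus in kb (horizontal axis), at 6 loci. Up-pointing symbols are F probes and down-pointing symbols R probes, and open symbols are probes of the array that carry another name. In the Tug1 panel only the leftmost R probes rose. In the Mirg panel 9 of the 10 filled F probes and 3 of the 9 open F probes were called lower.

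Dancr is a small nucleolar RNA host gene whose transcript opposes cell differentiation, and it runs on the F strand of chr5:74487385-74497428. The brightest F probe read 4.27, 4.65 and 4.51 with cordycepin plus serum, 2.68, 2.45 and 2.65 with serum and 2.68 and 2.65 without serum. It rose by 1.88 ± 0.13 (adjusted p = 4.8e-05) and was not called with serum (-0.07). The probe with the name Dancr rose by 1.99. Of the 10 F probes of the locus 6 were called higher and 1, at position 74489663, was called lower (-1.15). The averaged probes changed by 0.81 and were not called. On the R strand the brightest probe varied between arrays of 1 group (1.11, -1.44 and -1.05 with cordycepin plus serum), so the difference between strands had a standard error of 0.89. Another 3 of the 7 R probes were called higher, by 1.96 to 2.50, and the mean of the R probes rose by 1.07. Probes of both strands thus rose next to others that were not called.

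Most strands of named transcripts were not called by the brightest locus probe, although other probes at some of these loci were. At chr7:117140887-117152562, where R carries 1600010M07Rik, an R probe with another name than the locus rose by 1.88 with cordycepin and was called. The strand of a transcript with an NR_ accession was tested at 43 strands. By the brightest locus probe, 5 of these strands were called higher, at the loci that hold Tug1, 5930430L01Rik, Dancr, 2810410L24Rik and Sp3os, and 1 was called lower, at the locus that holds Lincpint. This was 11.6% and 2.33%, beside 7.56% and 2.99% of all tested probes, and the shares were not tested. Where only the opposite strand carried such a transcript, 0 of 31 tested strands were called. The probe with the name Dancr was itself called higher, while the probes named Tug1, 5930430L01Rik, Sp3os and Lincpint were not called. The Sp3os transcript lies on F at chr2:72818943-72826893, and its brightest probe rose by 1.13 with cordycepin and fell by 1.08 with serum (adjusted p = 0.0011 and 0.017), while R changed by 0.11 and -0.10. The call with cordycepin was lost with the normexp correction (0.95), with spike-in centring (0.40 for the adjusted p) and for the mean of the probes (0.81). The 3 F probes called were neighbours at positions 72821775 to 72821940. The F probes at the right end of the locus, where the probes named Sp3os lie, changed by 0.30 to 0.54.

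Snhg18, a small nucleolar RNA host gene, is listed at chr15:32167516-32174417 and again at chr15:32167516-32174427. Its R-strand probes changed by 0.60 and 0.56, below the size needed for a call, and F by 0.21 and 0.68. The locus of the ribosomal RNA precursor Rn45s, chr17:39960567-39992817, was bright on both strands on all arrays and was called on neither, with log2 changes of -0.34 on F and 0.21 on R. The brightest probe at Gm2115, on F of chr7:91558475-91733625, changed by -0.09. However, 1 of the 6 tested F probes of that locus and 1 of 2 other F probes inside it were called lower. The log2 changes ran down to -1.98 and -1.44. At the Mir17hg locus, chr14:115423660-115463160, which hosts a microRNA cluster, the brightest F and R probes overlapped by 30 bases and changed by 0.01 and -0.01. The probe with the name Mir17hg, further to the right on F, fell by 2.15 with cordycepin, and 3 neighbouring F probes fell by 2.02 to 2.12.

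By the brightest probes, both strands were called higher at 3 loci, against 6 by the mean of the probes and 10 with any probe of each strand. At chr6:100162756-100178531 the R probe read -1.54, -1.51 and -2.06 with cordycepin plus serum and -4.56, -4.90 and -4.61 with serum. It rose by 2.99 ± 0.22 (adjusted p = 6.2e-05). The F probe read -2.97, -3.63 and -3.45 with cordycepin plus serum and -6.03, -5.57 and -5.41 with serum, where it was well above background on no array. It passed the filter only through the cordycepin plus serum arrays. All 5 tested R probes and 3 of the 4 tested F probes were called higher. At chr3:117935228-118089771 F rose by 1.73 and R by 1.91, and all 3 tested probes of the locus were called. At chr2:175640275-175701875 F rose by 1.03 ± 0.18 and R by 2.34 ± 0.24, and the strands differed (-1.31 ± 0.20, adjusted p = 0.0018). The F call of that locus was lost without cordycepin plus serum replicate 2 (0.99) or without serum replicate 2 (0.86). With the normexp correction none of the 3 loci kept both calls.

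By the brightest probes, falls with cordycepin plus serum against serum were called on 17 strands, and at no locus on both. The largest was on F of chr12:110870903-110891628, whose probe read -3.67, -3.99 and -3.68 with cordycepin plus serum, -1.77, -1.33 and -1.42 with serum and -1.25 and -1.52 without serum. It fell by 2.27 ± 0.16 (adjusted p = 5e-05), and the cordycepin arrays lay below all others. The R probe of that locus varied more. It changed by -1.23 ± 0.41 and was not called (adjusted p = 0.075), although 2 of its 5 probes were. Without serum replicate 2, R was called lower (-1.63). It was also called lower by the mean of its probes (-1.10, adjusted p = 0.011).

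That locus is 1 of 3 neighbouring loci of the set on chromosome 12, which were grouped after their values were seen. They lie to the right of Rtl1, in the Dlk1-Dio3 imprinted domain. That domain includes a cluster of maternally expressed noncoding RNAs that host many microRNAs and small nucleolar RNAs. At chr12:110896603-110940553 F fell by 1.48 ± 0.23 (adjusted p = 0.0023) with all 5 F probes called lower, while R changed by -0.02. With the normexp correction that value was -0.99, just under the size needed for a call. At the Mirg locus, chr12:110944403-110988678, the brightest F probe changed by -0.70, under the size needed for a call, but the other 9 of the 10 tested F probes were called lower and the mean of the probes fell by 1.96. The probes of R there changed by -0.66 and -0.62, and the first was called lower (-1.17) without serum replicate 2. Over the 3 loci 16 of the 17 tested F probes that carry the names of the loci were called lower, and 2 of 8 such R probes. Beside this, 2.99% of all tested probes and 4.50% of all tested probes at the 525 loci were called lower. Probes of 1 strand can read the same transcript on the same arrays, so the 17 are not independent of each other. The median log2 change of the 17 was -1.85, which includes probes not above background with cordycepin. F probes with other names were more mixed. Of these, 3 of 9 at the Mirg locus and 3 of 5 at chr12:110896603-110940553 were called lower. The only 1 at chr12:110870903-110891628 changed by -0.51 and was not called. None of these probes was called with serum.

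On chromosome 3, chr3:131128972-131163308 fell on R and not on F. The R probe read -4.79, -5.88 and -5.27 with cordycepin plus serum and -3.60, -3.90 and -3.21 with serum, and it was well above background on all serum arrays but on none of the cordycepin plus serum arrays. The fall was at least 2.81-fold (adjusted p = 0.0032), all 3 tested R probes were called lower, and none of the 4 F probes was called. The strand difference was called (adjusted p = 0.00048), with no size given for the same reason as on chromosome 13. Lincpint, a transcript induced by p53, lies on R of chr6:31017987-31174287. Its locus probe read -4.74, -4.48 and -4.19 with cordycepin plus serum and -2.83, -2.61 and -3.48 with serum, and fell by 1.50 ± 0.24. All 3 R probes of the locus were called lower, and 1 of them was well above background on none of the cordycepin plus serum arrays. Probes with the name Lincpint changed by -0.77 to -0.53 and were not called. F changed by 0.31, and the strand difference was 1.81 ± 0.40 (adjusted p = 0.010). At chr15:61919018-61935580, to the right of Myc, R fell by 1.61 ± 0.27 (adjusted p = 0.0034) and F changed by -0.18, by probes without a position. The positioned R probe was also called lower, as was 1 of the 2 positioned F probes, and neither was well above background on any cordycepin plus serum array. With the normexp correction the falls at these chromosome 3, 6 and 15 loci were no longer called (-0.30, -0.42 and -0.30).

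Serum alone changed few of these strands. Against no serum, 3 strands were called higher and 9 lower (0.439% and 1.32%), beside 0.878% and 0.898% of all tested probes, and 5 loci (2.03%) were called for a strand difference, beside 2.13%. The normexp correction gave 1 strand higher and 4 lower, and spike-in centring gave 0 and 1. Loci with a strand difference numbered 0 to 3 whichever array was left out, 0 with no filter and 1 with the slide row as a block. Without no serum replicate 2, 4 strands were lower. The largest rise was on R of chr10:120116843-120182671, next to Msrb3, which read -2.19, -2.33 and -2.20 with serum and -3.46 and -4.30 without. It rose by 1.64 ± 0.24 (adjusted p = 0.014), and a further 1.25 ± 0.22 with cordycepin plus serum over serum. Without no serum replicate 2 the adjusted p for serum was 0.062, and the mean of the R probes (0.95 with serum and 0.58 with cordycepin) was called in neither comparison. On F of chr7:117140887-117152562 the level was -3.59, -3.67 and -3.36 with serum and -5.24 and -4.78 without, a rise of 1.47 ± 0.18 (adjusted p = 0.0059), while R, which carries 1600010M07Rik, changed by 0.16. The rise was not called with the normexp correction (0.58), with spike-in centring (adjusted p = 0.85) or for the mean of the probes (0.95, adjusted p = 0.052). The strand difference was 1.31 with an adjusted p of 0.043, and the adjusted p was 0.19 with no filter, 0.29 with normexp and 0.071 with the slide row as a block.

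Among the falls with serum the largest was 1.99 on R of chr4:45079022-45096897. On F of chr18:61798876-61807452 the level was 0.39, 0.25 and 0.37 with serum and 2.34 and 1.65 without, a fall of 1.66 ± 0.20 (adjusted p = 0.0053), and R changed by -0.13. R of the same locus rose by 1.52 ± 0.15 with cordycepin plus serum over serum, with all 4 R probes called higher, and F changed by -0.70. The mean of the F probes changed by -0.30 with serum and was not called. The other 2 F probes of the locus did not fall with serum (0.37 and 0.39). On R of chr18:79286360-79304510 the level fell by 1.64 ± 0.23 with serum (adjusted p = 0.011) and by a further 1.04 ± 0.21 with cordycepin, and 4 of 5 R probes were called lower with serum. The adjusted p with serum was 0.064 without no serum replicate 1 and 0.083 without replicate 2. It was 0.095 with spike-in centring and 0.062 with no filter. Of the 3 tested F probes of that locus, 1 was also called lower with serum (-1.58). The fall of R with cordycepin dropped below the size needed for a call without serum replicate 1 (-0.84) or cordycepin plus serum replicate 3 (-0.98). It was also not called with the normexp correction (-0.72), with spike-in centring (adjusted p = 0.37) or for the mean of the probes (-0.60).

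Against cells without serum, the cordycepin plus serum cells had 47 strands called higher and 25 lower (6.87% and 3.65%), beside 6.46% and 3.08% of all tested probes. With spike-in centring 11 were higher and 12 lower, and with normexp 16 and 8. The strands differed at 34 loci (13.8%), beside 16.5%, and at 11 with normexp. This comparison shares arrays with both others. The only locus with strands called in opposite directions was chr18:61798876-61807452, where F fell by 2.36 and R rose by 1.39 (adjusted p = 0.00017 and 0.00089). Both strands were called higher at 4 loci, among them chr10:120116843-120182671 (1.77 on F and 2.89 on R), and both lower at chr12:110870903-110891628 (-2.40 and -1.69). R of chr1:107866276-107887102 was 3.02 above the no serum level. R of the Tug1 locus was 1.20 above it, and F of the Sp3os locus was 0.05 from it.

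The loci were also described by what lay beyond the 20 kb left out by the rule. With cordycepin plus serum against serum, strands with an NM_ probe upstream on the same strand within 100 kb were called higher at 24 of 223 (10.8%) and lower at 3, and strands without at 27 of 461 (5.86%) and 14. Where only 1 strand had such a neighbour, that strand was called higher at 15 of 138 loci (10.9%) and the other strand at 4 of 132 (3.03%). Over all tested probes of the array 7.56% were called higher and 2.99% lower, between these shares for the higher calls. Loci of at most the median length had 31 of 327 strands called higher and 5 lower, and longer loci 20 of 357 and 12. On the R strand 29 of 343 were called higher (8.45%) and 12 lower, and on F 22 of 341 (6.45%) and 5. The median GC content of the brightest probe was 43.3% for strands called higher, 43.3% for strands called lower and 45% for strands tested and not called. The motif AATAAA, the poly(A) signal letters searched on the probe's own strand, was in 1.96% of the probes of strands called higher, in 5.88% of those called lower, in 3.41% of those not called and in 3.92% of all lincRNA probes. These are descriptions over strands of the same arrays, with no test and no matching for brightness.

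Other lincRNA loci of the array are set beside these. Among all tested probes 12.8% of those at the 525 loci were called higher and 4.50% lower, where all probes of the array gave 7.56% and 2.99%. At the loci with both strands probed near a coding gene the shares were 20.1% and 2.68%, and at loci probed on 1 strand 18.9% and 4.53%. By the brightest probe of each strand the shares called higher were 7.46%, 14.1% and 15.5% in that order. No test was made of the difference between these groups of loci.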

How the data were processed

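NIH3T3 RNA (ReliaPrep kit, DNase treated) was labelled with Cy3 by the Low Input Quick Amp kit, which primes from poly(A) tails, so a signal depends on the tail as well as on the amount of an RNA, and hybridised to 8 one-colour Agilent 60K arrays on 1 slide. The authors deposited scanner output of Feature Extraction 10.7.3.1, in which the processed, mean and background signals are intensity values on a linear scale. Probe positions are in mm9 in the deposited files. The study's methods name limma but no normalisation or filter.

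Outlier spots were dropped, spots of a probe averaged, and log2 of the processed intensity reduced by the array's 75th percentile. limma 3.58.1 (R 4.3.3) fitted all 8 arrays with groups only, for probes flagged well above background on all arrays of 1 or more groups. Calls needed a Benjamini-Hochberg adjusted p below 0.05 together with a log2 change of 1 or more in size. Strand differences were fitted per array as F minus R. The scripts were tested on simulated data. Named loci followed a rule: both strands called higher, the 5 largest strand differences with both strands well above background, the 4 largest falls, strands detected with cordycepin only, the largest changes with serum, and 5 loci with named transcripts. The Sp3os, Mir17hg and chromosome 12 loci and those named over overlapping probes were chosen after their values were seen. The members, lists and tests were chosen with earlier results of these data known. Replicate numbers did not pair the samples (correlations of deviations -0.175 to 0.227). Alternatives were the background correction, the scaling, the filter, the minimum change, a replicate block, a slide row block, the mean of the probes of a strand, each array left out, and 50 kb in place of 20 kb. Of 16251 lincRNA probes, 70 without a strand name were not used.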

Additional observations from a re-analysis of the deposited data

How the results depend on the processing

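Among the recomputed values of the named strands 953 kept their direction and their side of the threshold, 44 fell short of it, 13 passed it and none changed direction. As reported, cordycepin plus serum against serum had 51 strands higher, 17 lower, 3 loci with both strands higher and 31 with a strand difference. Serum against no serum had 3, 9 and 5 (higher, lower, difference), and cordycepin plus serum against no serum 47, 25 and 34. With the normexp correction the first comparison had 17 higher, 3 lower, 0 with both strands higher and 10 differing, the second 1 higher and 4 lower, and the third 16, 8 and 11. With centring on spike-in probes the first had 26 higher and 3 lower, the second 0 and 1, and the third 11 and 12. That centring moved the median of all probes by -0.36 and -0.33 in the comparisons with no serum. Over all probes, 71.7% of calls with cordycepin against serum were higher, and 60.3% with quantile normalisation, under which 3 loci differed with serum. With no filter the second comparison had 1 higher, 3 lower and 0 differing, and the third had 22 differing. With only probes detected on all 8 arrays, the first had 33 higher and 0 with both strands higher, and the third 31 higher, from fewer probes. With no minimum change the first had 93 higher, 37 lower and 9 with both strands higher, the second 5 higher and the third 72 higher. The mean of the probes gave 6 loci with both strands higher and 14 lower with serum. With 50 kb in place of 20 kb, and so fewer loci, the first had 26 higher and 17 differing, the second 1, 4 and 1, and the third 21 higher and 18 differing. With any probe called, the first had 96 higher, 41 lower and 10 loci with both strands higher. Overlapping probes gave 12, 0 and 10 differing loci. The slide row as a block left 1 locus differing with serum. The cause of the other moves was not tested.

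The replicate numbers did not pair the samples. With the replicate block, 0 loci differed with serum, and the first comparison had 50 higher, 18 lower, 4 with both strands higher and 28 differing.

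With 1 array left out, the first comparison had 43 to 53 higher, 14 to 23 lower, 2 to 5 with both strands higher and 23 to 35 differing. The second had 2 to 3 higher, 4 to 12 lower and 0 to 3 differing, and the third 39 to 49 higher, 20 to 26 lower and 18 to 37 differing. Dim probes carry most of these results: 503 of the 684 tested strands were dimmer than the median tested probe.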
